A study of Homo sapiens with 30 samples.

Results

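The genes described here encode the SR proteins and the heterogeneous nuclear ribonucleoproteins (hnRNPs), measured on exon arrays in T47D cells depleted of subunits of the negative elongation factor NELF. Members were all genes whose single platform symbol, on either the gene-level or the exon-level annotation, began with SRSF or its older form SFRS, or with HNRNP or its older form HNRP. The rule gave 40 genes of 17303 that carry 1 symbol: 11 SR proteins, 10 genes that once had an SFRS symbol and now have another name, and 19 hnRNPs. The 10 renamed genes (TRA2B, SREK1, SREK1IP1, SUGP2, SCAF4, SCAF11, CLASRP, AKAP17A, PNISR and SFSWAP) are called SR-related below, since several of them are not splicing regulators of the SR protein family itself. A transcript cluster of their own gave the level of 33 members, and the median of exon-level probe sets gave it for the other 7 (AKAP17A, HNRNPA1, HNRNPA3, HNRNPC, HNRNPK, SRSF2 and SRSF5).

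T47D is an established luminal, hormone receptor-positive breast cancer line. Cells received siRNA at 10 nM against NELF-A (siNELF-A), NELF-B (siNELF-B), NELF-C (siNELF-C) or NELF-E (siNELF-E), or a luciferase siRNA as control, had their medium changed at 48 h and grew for a further 48 h. Each of the 5 groups had 3 arrays, 15 in all, which the series text describes as technical repeats, so that p-values measure the spread between repeats of a condition and not between separate cultures. All 4 knockdowns were set against the same 3 control arrays.

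SR proteins carry an RNA recognition motif and a domain rich in arginine and serine, bind exonic enhancers and recruit the spliceosome, so that they mostly favour exon inclusion. The hnRNPs coat nascent RNA, often bind silencers, and frequently oppose SR proteins at the same exon. Many members of both families keep their own level in check through alternative exons that send the mRNA to nonsense-mediated decay, and NELF acts upstream of splicing, holding RNA polymerase II near the promoter.

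Values are robust multi-array average (RMA) levels on the log2 scale, and changes are differences of group means on that scale. A member was called when its change was at least 1.5-fold and its limma p, after Benjamini-Hochberg adjustment across every cluster or every exon median, was below 0.05. The targeted genes were checked first: NELFCD, which encodes NELF-C, fell by 3.42 in siNELF-C cells (adjusted p = 1.67e-05) and NELFE fell by 2.61 in siNELF-E cells (adjusted p = 2.49e-05). NELFA changed by -0.61 in siNELF-A cells and was not called (adjusted p = 0.176), and NELFB was not analysed here, so that these arrays give no direct check of the siNELF-B label. Of 11 luminal markers, the median level lay at 8.54 to 9.47 over the knockdown arrays, against 9.62 to 9.88 over the control arrays. ESR1, the oestrogen receptor, ranged from 6.12 to 7.72 over the 15 arrays and PGR, the progesterone receptor, from 8.25 to 10.0. Of 10 markers of basal, mesenchymal, endothelial and blood cells, 6 lay below the 40th percentile of all clusters (3.90) and 3 of those below the 25th (2.70), and their median was 2.97 to 3.72 on knockdown arrays, against 3.10 to 3.27 on control arrays. The siNELF-B arrays stood apart: their mean correlation with their own group was 0.934 to 0.962, against at least 0.984 on the other 12 arrays, and replicate 3 had an interquartile range of 3.12, against 3.95 to 4.12 on the control arrays. Over all clusters 982 were called lower and 77 higher in the mean of the 4 knockdowns, a split of 648 and 208 after quantile normalization and of 593 and 356 with each array centred on its 75th percentile.

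Most SR protein and hnRNP transcripts lay below control in every knockdown, but few passed the test. In RNA from whole cultures, fewer cells that express a gene and less RNA per cell cannot be told apart. The change was below zero for 36 of 40 members in siNELF-A cells, 37 with siNELF-B, 36 with siNELF-C and 32 with siNELF-E, and for 29 members in all 4. Median changes were -0.30, -0.53, -0.57 and -0.39 in siNELF-A, -B, -C and -E cells, against -0.03, -0.14, -0.08 and -0.02 over all 22011 clusters. Against the 13207 clusters at or above the 40th percentile of level, whose medians were -0.12, -0.39, -0.23 and -0.06, the members lay lower too, by a smaller margin. That cut was at 3.90, and every member but SRSF12 had a control mean of at least 4.836, so these clusters were not matched in level. Quantile normalization moved the median of all clusters in the mean of the 4 knockdowns to 0.05 from the deposited -0.08, and that of the members to -0.21 from -0.46.

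In the mean of the 4 knockdowns, 3 members fell (SRSF4, HNRNPH1 and HNRNPUL1) and none rose, that is 3 of the 33 members with a cluster, with 4.46% of all clusters called lower and 0.35% higher. None of the 7 members measured as exon medians was called there or in any knockdown, with 3.91% of exon medians called lower in the mean, 2.05% in siNELF-A cells, 3.2% with siNELF-B, 4.34% with siNELF-C and 3.32% with siNELF-E. In siNELF-A cells SRSF4, HNRNPUL1 and HNRNPF fell (background 2.83% of clusters lower). In siNELF-C cells SRSF4, SRSF10, SRSF7, TRA2B and HNRNPH1 fell (background 5.3%), and in siNELF-E cells HNRNPH1 and SRSF10 fell (background 4.04%). In siNELF-B cells limma called 0 members (background 4.19%). An unadjusted p under 0.05 was found there for 19 of 40 members, against 6520 of 22011 clusters and 5240 of 16909 exon medians. No member was called in 3 or 4 knockdowns, 3 were called in 2 knockdowns (HNRNPH1, SRSF10 and SRSF4) and 33 in none, and no member was called higher in any comparison with control, where 0.495%, 0.204%, 0.922% and 1.44% of clusters were with siNELF-A, -B, -C and -E. The share of members called lower in a knockdown ranged from 0 of 40 to 5 of 40, too few calls to read against these backgrounds as a result about the family. How many of all clusters were called in 2 or more knockdowns was not counted. After quantile normalization the changes of SRSF4, HNRNPH1 and HNRNPUL1 in the mean of the 4 knockdowns were -0.46, -0.58 and -0.54 (limma adjusted p = 0.0135, 0.0074 and 0.00228), under 1.5-fold and so not called. The heat map of changes shows most genes in blue, with circles at the calls.

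**Figure D1:**
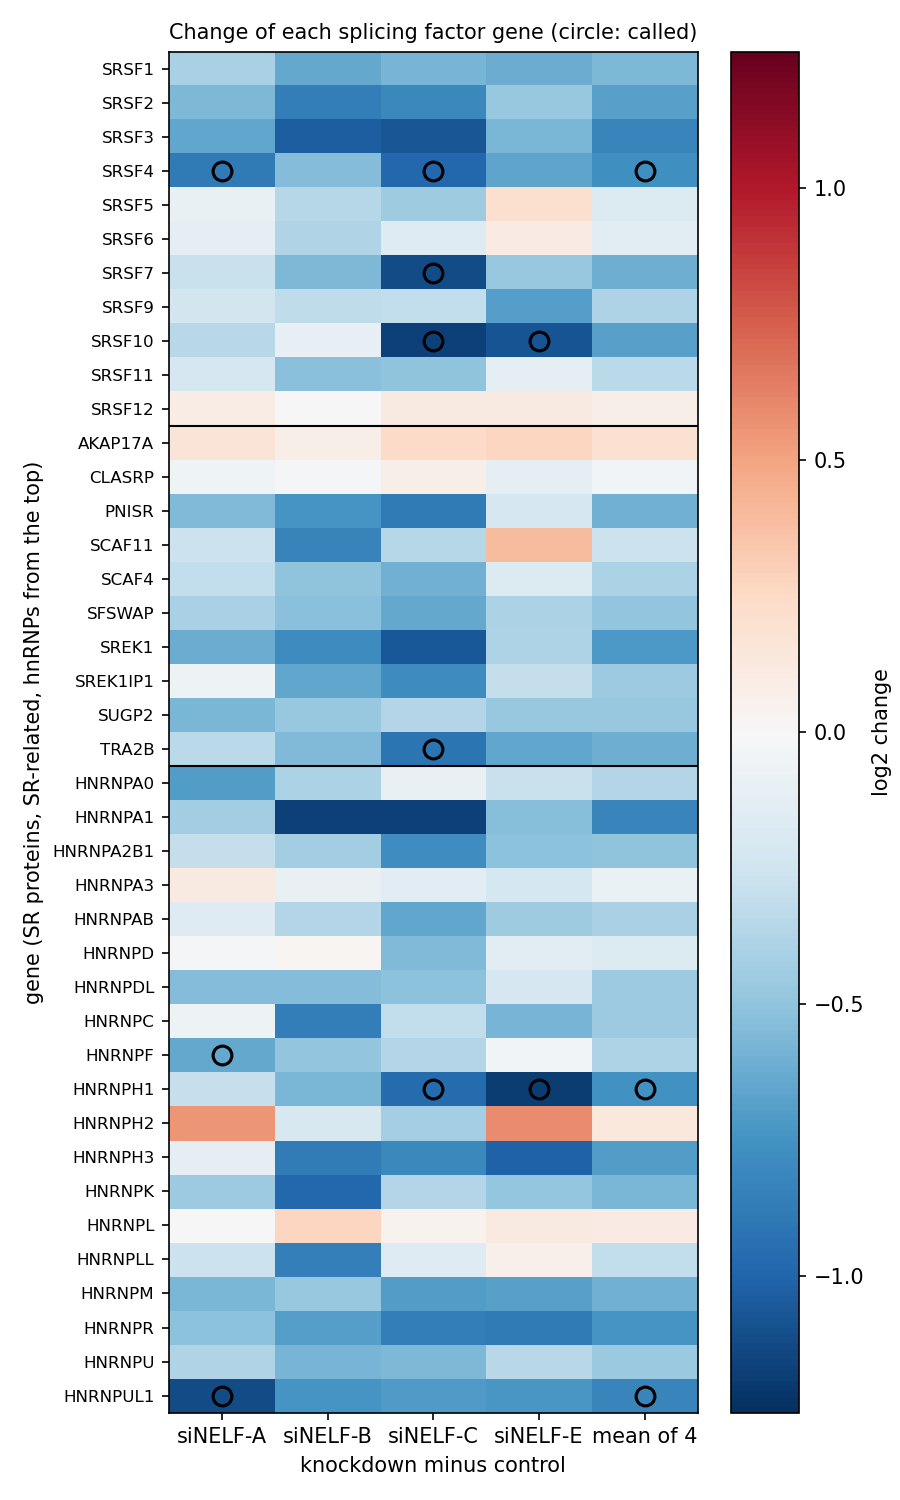
Log2 change (colour, knockdown minus control) of the 40 members in each knockdown and in the mean of the 4, with SR proteins, SR-related genes and hnRNPs from the top and a circle where the member was called. Most squares are blue (lower), SRSF4, HNRNPH1 and SRSF10 are circled in 2 knockdowns each, and no square above zero is circled.

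Among the SR proteins, SRSF4, a large member of the family that binds exonic enhancers, had the smallest adjusted p of all 40 in the mean of the 4 knockdowns. SRSF4 lay at 7.08, 6.99 and 6.68 on siNELF-A, 7.41, 7.56 and 6.82 on siNELF-B, 6.84, 6.87 and 6.77 on siNELF-C and 7.15, 6.98 and 7.29 on siNELF-E arrays, against 7.65, 7.86 and 7.90 on control arrays. All knockdown arrays lay below all control arrays, and siNELF-B replicate 2 came closest to them. The change was -0.77 (SE 0.14, adjusted p = 0.00866) in the mean of the 4 knockdowns (1.70-fold lower), -0.89 (SE 0.18, adjusted p = 0.0187) in siNELF-A and -0.98 (SE 0.18, adjusted p = 0.00888) in siNELF-C cells. In siNELF-B and siNELF-E cells it was -0.54 (SE 0.18, adjusted p = 0.0844) and -0.66 (SE 0.18, adjusted p = 0.0533), neither called. The call in the mean was lost without control replicate 2 (adjusted p = 0.0547) or 3 (adjusted p = 0.0784), and the median of exon-level probe sets gave -0.40 (adjusted p = 0.224). The siNELF-A call was lost without control replicate 2 or 3 or siNELF-A replicate 2 or 3 (adjusted p 0.0541 to 0.0949), and the siNELF-C call without control replicate 3 (adjusted p = 0.051).

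SRSF1, the prototype SR protein and a known oncogene, had a smaller change and a narrow control spread. SRSF1 lay at 9.91, 9.70 and 9.56 on siNELF-A, 9.44, 9.94 and 9.09 on siNELF-B, 9.68, 9.44 and 9.54 on siNELF-C and 9.58, 9.27 and 9.69 on siNELF-E arrays, against 10.10, 10.19 and 10.10 on control arrays. All 12 knockdown arrays lay below the 3 control arrays. The mean change over the 4 knockdowns was -0.56 (SE 0.15, adjusted p = 0.0487), past the adjusted p threshold but 1.47-fold and so not called.

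SRSF2, an SR protein that also helps release paused RNA polymerase II, was measured as the median of 16 probe sets. SRSF2 lay at 8.79, 8.67 and 8.82 on siNELF-A, 8.27, 9.18 and 7.94 on siNELF-B, 8.45, 8.48 and 8.63 on siNELF-C and 8.91, 8.72 and 8.90 on siNELF-E arrays, against 9.33, 9.30 and 9.33 on control arrays. The 3 control arrays lay close together and above every knockdown array, although siNELF-B replicate 2 was only just below them. The change was -0.68 (SE 0.20, adjusted p = 0.0694) in the mean of the 4 knockdowns and was not called.

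SRSF10, which turns into a splicing repressor when dephosphorylated, split the knockdowns. SRSF10 lay at 5.27, 5.20 and 6.30 on siNELF-A, 5.83, 5.70 and 5.96 on siNELF-B, 4.89, 4.47 and 4.95 on siNELF-C and 4.82, 4.99 and 4.78 on siNELF-E arrays, against 5.85, 6.10 and 5.86 on control arrays. The siNELF-C and siNELF-E arrays were all well below control, while the siNELF-B arrays overlapped control, siNELF-A replicates 1 and 2 lay below it and siNELF-A replicate 3 was the highest of the 15. SRSF10 fell by 1.17 in siNELF-C (2.25-fold, SE 0.25, adjusted p = 0.016) and by 1.08 in siNELF-E cells (2.11-fold, SE 0.25, adjusted p = 0.0199). As the median of its exon-level probe sets the change was -1.48 in siNELF-C (adjusted p = 0.0811) and -0.61 in siNELF-E cells (adjusted p = 0.669), neither called. Which transcripts the cluster and the probe sets cover was not analysed here, so the 2 measures may not read the same sequence. At gene level the siNELF-C call was lost without control replicate 2 or 3 or siNELF-C replicate 2 (adjusted p 0.0606 to 0.0832), the siNELF-E call without any 1 control or siNELF-E array (adjusted p 0.0512 to 0.0863), and both after quantile normalization (adjusted p = 0.0958 and 0.125).

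SRSF7, an SR protein with a zinc knuckle that also takes part in mRNA export, was called in siNELF-C cells. SRSF7 lay at 6.48, 6.47 and 6.53 on siNELF-A, 6.16, 7.11 and 5.37 on siNELF-B, 5.55, 5.55 and 5.87 on siNELF-C and 6.21, 6.27 and 6.42 on siNELF-E arrays, against 6.64, 6.73 and 6.95 on control arrays. The siNELF-C arrays were the lowest apart from siNELF-B replicate 3, and siNELF-B replicate 2 was above control. The change in siNELF-C cells was -1.12 (SE 0.31, adjusted p = 0.0479), lost on leaving out any array but siNELF-B replicates 2 and 3 (adjusted p 0.0619 to 0.172).

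The other SR proteins were not called in any comparison with control. SRSF3, the smallest SR protein and a regulator of its own poison exon, had the lowest mean change of the family, -0.83 (SE 0.28, adjusted p = 0.103), with widely spread siNELF-B arrays at 7.11, 8.55 and 6.76. SRSF9 lay at 10.77, 9.91 and 10.22 on siNELF-A, 10.33, 10.72 and 9.61 on siNELF-B, 10.20, 10.21 and 10.27 on siNELF-C and 10.07, 9.57 and 9.89 on siNELF-E arrays, against 10.40, 10.63 and 10.58 on control arrays. SRSF9, a short SR protein with little RS domain, was below control on all siNELF-C and siNELF-E arrays but above it on siNELF-A replicate 1 and siNELF-B replicate 2. SRSF12, an SR-like splicing repressor, lay between 2.12 and 2.46 on the 15 arrays, below the 25th percentile of all clusters, where no change can be read. SRSF5 and SRSF6, both enhancer-binding SR proteins, had mean changes of -0.17 and -0.14 and values above zero in siNELF-E cells (0.20 and 0.10). SRSF6 overlapped control in every knockdown. The small mean of SRSF5 joined shifts both ways, with its arrays below all control arrays in siNELF-B and siNELF-C cells and above them in siNELF-E cells. SRSF11, which binds near the 3′ splice site, had a mean change of -0.34.

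**Figure D2:**
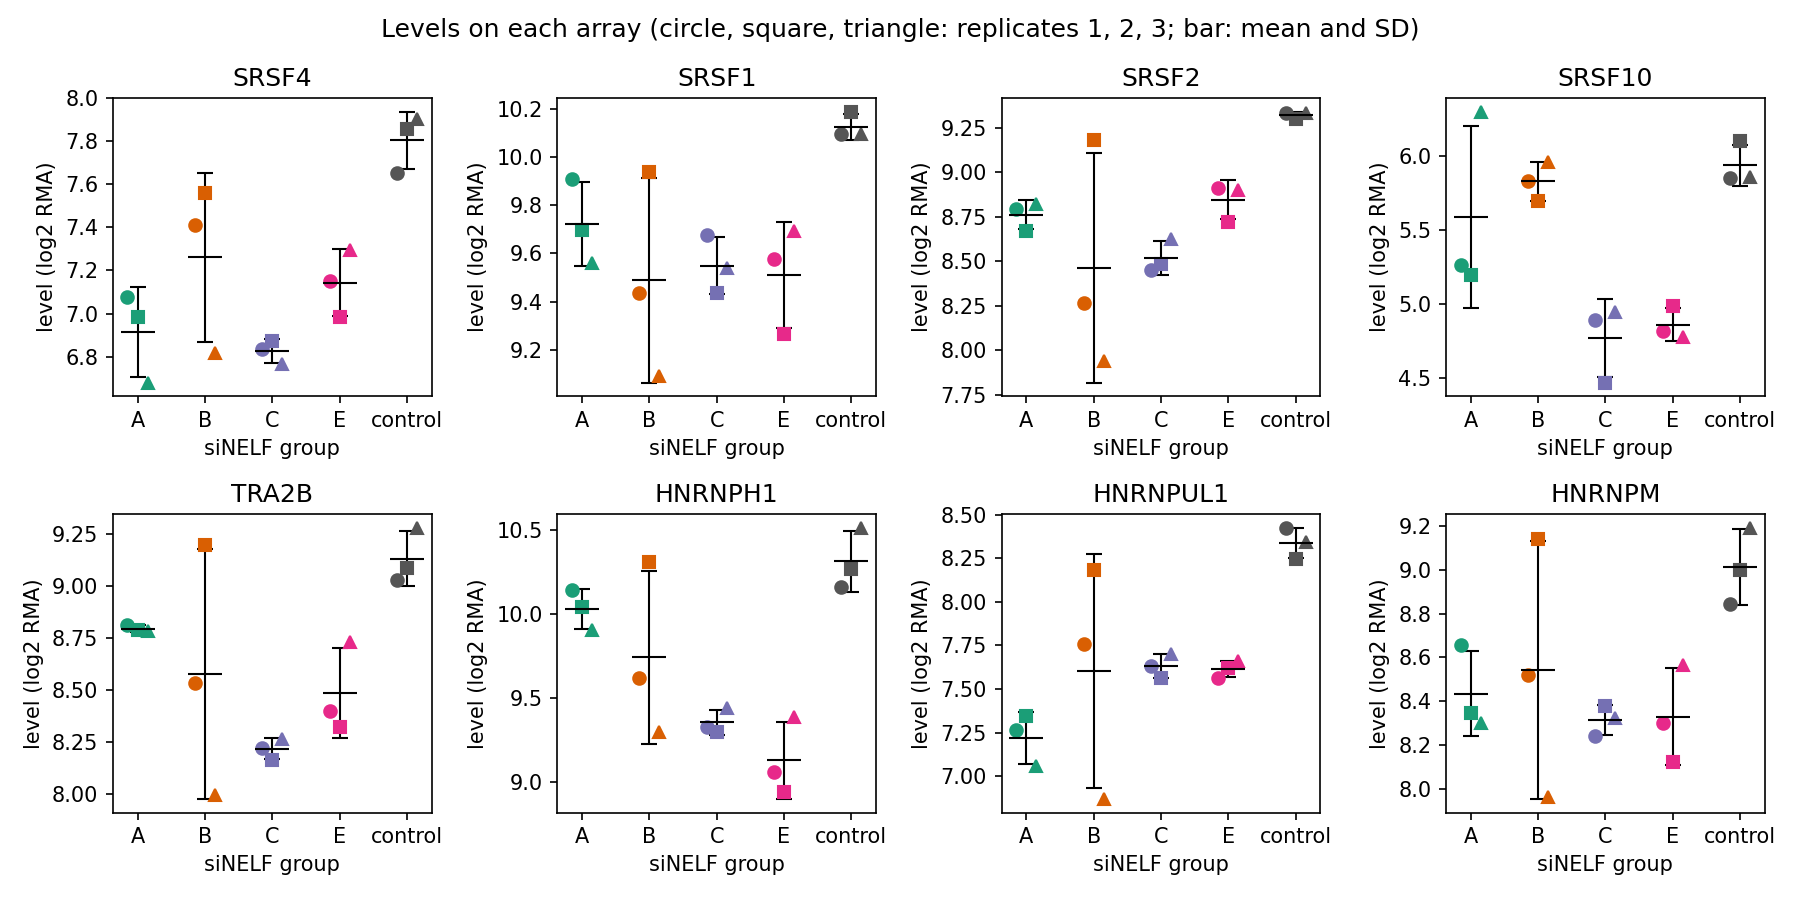
Level (log2 RMA) of 8 members on each array, by siRNA group from siNELF-A to siNELF-E and then control, with circles, squares and triangles for replicates 1, 2 and 3 and bars for the group mean and SD (n = 3). SRSF4, SRSF1, SRSF2 and HNRNPUL1 are below control on all 12 knockdown arrays, SRSF10 is lowest on the siNELF-C and siNELF-E arrays and also below control on siNELF-A replicates 1 and 2, and the siNELF-B bars are wide in all panels but that of SRSF10.

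Of the 10 SR-related genes, TRA2B was called in siNELF-C cells and none in the mean of the 4 knockdowns. TRA2B binds purine-rich enhancers and, like the SR proteins, has RS domains. TRA2B lay at 8.81, 8.79 and 8.78 on siNELF-A, 8.54, 9.20 and 7.999 on siNELF-B, 8.22, 8.17 and 8.27 on siNELF-C and 8.40, 8.32 and 8.73 on siNELF-E arrays, against 9.03, 9.08 and 9.28 on control arrays. All siNELF-A, -C and -E arrays lay below control, and siNELF-B replicate 2 lay within the control range. The change was -0.91 (SE 0.23, adjusted p = 0.0329) in siNELF-C cells (1.88-fold lower) and -0.61 (SE 0.18, adjusted p = 0.0672) in the mean of the 4 knockdowns. The siNELF-C call was lost without any 1 control or siNELF-C array (adjusted p 0.0772 to 0.134).

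SREK1, a regulator with both RS repeats and an RNA recognition motif, had the lowest mean change of the SR-related genes (-0.71, SE 0.26, adjusted p = 0.13). SUGP2, a G-patch protein, changed by -0.47 (SE 0.15, adjusted p = 0.0815) and was below control on all 12 knockdown arrays, as was SFSWAP, a regulator that controls splicing of its own transcript, at -0.49 (SE 0.20, adjusted p = 0.163). PNISR, a nuclear-speckle SR protein, was at -0.60, SREK1IP1, a partner of SREK1, at -0.45, SCAF4, which binds the C-terminal domain of RNA polymerase II, at -0.39 and SCAF11, a splicing-related RS protein, at -0.27, none called. CLASRP, a CLK-associating RS protein, was at -0.03. AKAP17A, an anchoring protein for protein kinase A in splicing factor compartments, was the only member above zero in all 4 knockdowns, at 0.16, 0.08, 0.24 and 0.27 in siNELF-A, -B, -C and -E cells, and was not called (mean 0.19, adjusted p = 0.516).

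Among the hnRNPs, HNRNPH1 and HNRNPUL1 were called in the mean of the 4 knockdowns. HNRNPH1 binds runs of G and either silences or activates exons. HNRNPH1 lay at 10.15, 10.04 and 9.91 on siNELF-A, 9.62, 10.31 and 9.30 on siNELF-B, 9.33, 9.30 and 9.44 on siNELF-C and 9.06, 8.94 and 9.38 on siNELF-E arrays, against 10.16, 10.27 and 10.52 on control arrays. The siNELF-C and siNELF-E arrays lay clearly below control, the siNELF-A arrays just below it, and siNELF-B replicate 2 within the control range. HNRNPH1 fell by 0.75 in the mean of the 4 knockdowns (1.68-fold, SE 0.17, adjusted p = 0.0228), by 0.96 in siNELF-C (adjusted p = 0.0215) and by 1.19 in siNELF-E cells (adjusted p = 0.00529). The call in the mean was lost without any 1 control array (adjusted p 0.0726 to 0.174), and that in siNELF-C cells without any 1 control or siNELF-C array (adjusted p 0.0529 to 0.103). Both were also lost with exon medians.

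HNRNPUL1, a member of the hnRNP U group that also takes part in the response to DNA breaks, was below control on every knockdown array. HNRNPUL1 lay at 7.27, 7.34 and 7.06 on siNELF-A, 7.76, 8.19 and 6.87 on siNELF-B, 7.63, 7.56 and 7.70 on siNELF-C and 7.56, 7.62 and 7.66 on siNELF-E arrays, against 8.42, 8.25 and 8.34 on control arrays. The siNELF-A arrays were the lowest apart from siNELF-B replicate 3, and siNELF-B replicate 2 came nearest to control. The SD was 0.15 in siNELF-A cells, against 0.07 in siNELF-C cells, 0.05 in siNELF-E cells and 0.09 in control. HNRNPUL1 fell by 0.82 in the mean of the 4 knockdowns (1.77-fold, SE 0.19, adjusted p = 0.0256) and by 1.12 in siNELF-A cells (2.17-fold, adjusted p = 0.0244), and was at -0.74, -0.71 and -0.72 with siRNA to NELF-B, NELF-C and NELF-E without a call. Its call in the mean was also lost without any 1 control array (adjusted p 0.0855 to 0.136) and with exon medians. The siNELF-A call was lost without any 1 control or siNELF-A array (adjusted p 0.0624 to 0.111) and as exon medians (adjusted p = 0.0506).

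HNRNPF, a relative of HNRNPH1 that also binds G tracts, followed another order. HNRNPF lay at 8.86, 8.97 and 8.59 on siNELF-A, 8.78, 9.32 and 8.74 on siNELF-B, 9.18, 9.01 and 9.05 on siNELF-C and 9.39, 9.48 and 9.37 on siNELF-E arrays, against 9.37, 9.496 and 9.47 on control arrays. The siNELF-A arrays were below all control arrays while the siNELF-E arrays lay among them or, for replicate 3, just under them. HNRNPF fell by 0.64 in siNELF-A cells (1.56-fold, SE 0.16, adjusted p = 0.0417) and was at -0.03 in siNELF-E cells (adjusted p = 0.966). The siNELF-A call was lost on leaving out any of the siNELF-A, -C or -E or control arrays (adjusted p 0.0612 to 0.182).

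The remaining hnRNPs were not called. HNRNPM, which binds GU-rich RNA, had a mean change of -0.60 (SE 0.19, adjusted p = 0.0788). HNRNPM lay at 8.66, 8.35 and 8.30 on siNELF-A, 8.52, 9.14 and 7.97 on siNELF-B, 8.24, 8.38 and 8.32 on siNELF-C and 8.30, 8.12 and 8.57 on siNELF-E arrays, against 8.84, 8.998 and 9.19 on control arrays. All arrays but siNELF-B replicate 2 lay below control. HNRNPC, which coats uridine tracts and blocks cryptic exons, ranged from 8.45 on siNELF-B replicate 3 to 10.51 on siNELF-B replicate 2, with control arrays at 10.33, 10.498 and 10.49, and changed by -0.45 (SE 0.29, adjusted p = 0.372). HNRNPLL, known for silencing exons of CD45 in lymphocytes, ranged from 3.96 to 6.25 over the same pair of arrays, with control arrays at 5.72, 5.97 and 6.23, and changed by -0.30 (SE 0.32, adjusted p = 0.574). For both genes the array with the lowest and the array with the highest value were of the same siNELF-B group.

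The hnRNP A/B and D group of 7 genes, which includes the exon silencers HNRNPA1 and HNRNPA2B1, had a median change of -0.41 in the mean of the 4 knockdowns, from -0.83 (HNRNPA1, SE 0.56, adjusted p = 0.398) to -0.08 (HNRNPA3). HNRNPA1 was the median of only 5 probe sets and spanned 3.48 to 7.61 within the siNELF-B arrays. HNRNPR, an RNA-binding protein of the nucleus and of axons, and HNRNPH3, a shorter relative of HNRNPH1, were at -0.74 (adjusted p = 0.103) and -0.70 (adjusted p = 0.159). HNRNPK, which binds poly(C), was at -0.57 and below control on all 12 knockdown arrays (adjusted p = 0.137), and HNRNPU, a scaffold-attachment protein, was at -0.47 (adjusted p = 0.159). HNRNPL, which binds CA repeats, was at 0.11 and HNRNPH2 at 0.13 (adjusted p = 0.483 and 0.825), the hnRNPs with a mean change above zero. The mean of HNRNPH2 joined shifts both ways, with group means of 8.14, 7.39, 7.17 and 8.18 in siNELF-A, -B, -C and -E cells, against 7.59 in control. All its siNELF-A and siNELF-E arrays lay above all control arrays, its siNELF-B and siNELF-C arrays overlapped control, and it was not called in any knockdown. By family, the mean change had a median of -0.56 over the SR proteins, -0.46 over the SR-related genes and -0.45 over the hnRNPs.

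The knockdowns were also set against each other, where control arrays enter only through the shared spread. Over the 6 pairs, 3 members were called, in 3 of the pairs. HNRNPH1 changed by -0.91 in siNELF-E relative to siNELF-A cells (SE 0.22, adjusted p = 0.0321; 1.49% of clusters lower). HNRNPF changed by 0.61 in siNELF-E relative to siNELF-A cells (SE 0.16, adjusted p = 0.0459; 2.56% higher), so that these G-tract binding relatives stood in opposite order in the same pair. SRSF10 changed by -1.06 in siNELF-C relative to siNELF-B cells (adjusted p = 0.0431), where 0.536% of clusters were called lower and 1.6% higher. It changed by -0.97 in siNELF-E relative to siNELF-B cells (adjusted p = 0.0335), where 1.16% were called lower and 5.74% higher. Each of these 4 calls was lost on leaving out some single arrays. That of HNRNPH1 was lost without any 1 siNELF-A array, siNELF-E replicate 1 or 2, control replicate 2 or siNELF-C replicate 1 (adjusted p 0.0506 to 0.134). That of HNRNPF was lost on leaving out any array but siNELF-B replicate 2 or 3 (adjusted p 0.0528 to 0.179). That of SRSF10 against siNELF-B was lost in siNELF-C cells without any 1 control, siNELF-C or siNELF-E array or siNELF-B replicate 1 (adjusted p 0.0633 to 0.17). In siNELF-E cells it was lost without any 1 siNELF-E array or siNELF-B replicate 1 or 3 (adjusted p 0.0708 to 0.115). As exon medians none of the 4 was called (adjusted p 0.0713 to 0.84), and with a replicate block only that of SRSF10 in siNELF-E cells was. In the other 3 pairs limma called 0 members. Shares called lower and higher were 3.46% and 0.818% of clusters for siNELF-B relative to siNELF-A cells. They were 1.66% and 1.21% for siNELF-C relative to siNELF-A cells and 1.59% and 3.59% for siNELF-E relative to siNELF-C cells. An unadjusted p under 0.05 was found for 2, 7 and 4 of 40 members in these pairs, against 4328, 3417 and 4291 of 22011 clusters.

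The order of arrays gives a count that does not use the fitted spread. Of the 33 members with a cluster, 19 had all 3 siNELF-A arrays below all 3 control arrays, 57.6%, against 22.5% of all clusters and 31.7% of clusters at or above the 40th percentile of level. The count was 26 (78.8%) for siNELF-C, against 31.3% and 45.5%, and 18 (54.5%) for siNELF-E, against 21.1% and 29%. In siNELF-B cells it was 6 (18.2%), against 16.6% of all clusters and 23.6% of the brighter ones, close to the background. Of the 7 members measured as exon medians, 2, 3, 4 and 3 lay below control in siNELF-A, -B, -C and -E cells, against 22.1%, 17%, 32.8% and 19.7% of exon medians. SRSF1, SRSF2, SRSF4, SFSWAP, SUGP2, HNRNPK and HNRNPUL1 lay below control on all 12 knockdown arrays; 5 of these 7 are clusters, of which 4.86% in all did so. Above all control arrays lay 1 member each with siNELF-A, -B and -C and 4 with siNELF-E, of 40, where 12%, 5.57%, 15.1% and 13.5% of all clusters did. Leaving siNELF-B aside, 15 members lay below control on the other 9 knockdown arrays, 13 of them clusters, against 9.45% of all clusters. After quantile normalization the shares of the 33 were 39.4%, 6.1%, 63.6% and 48.5% in siNELF-A, -B, -C and -E cells, against 16.3%, 11.7%, 20.1% and 16.3% of all clusters. The shares of clusters at or above the 40th percentile of level were then 21.6%, 15.7%, 26.8% and 22%.

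**Figure D3:**
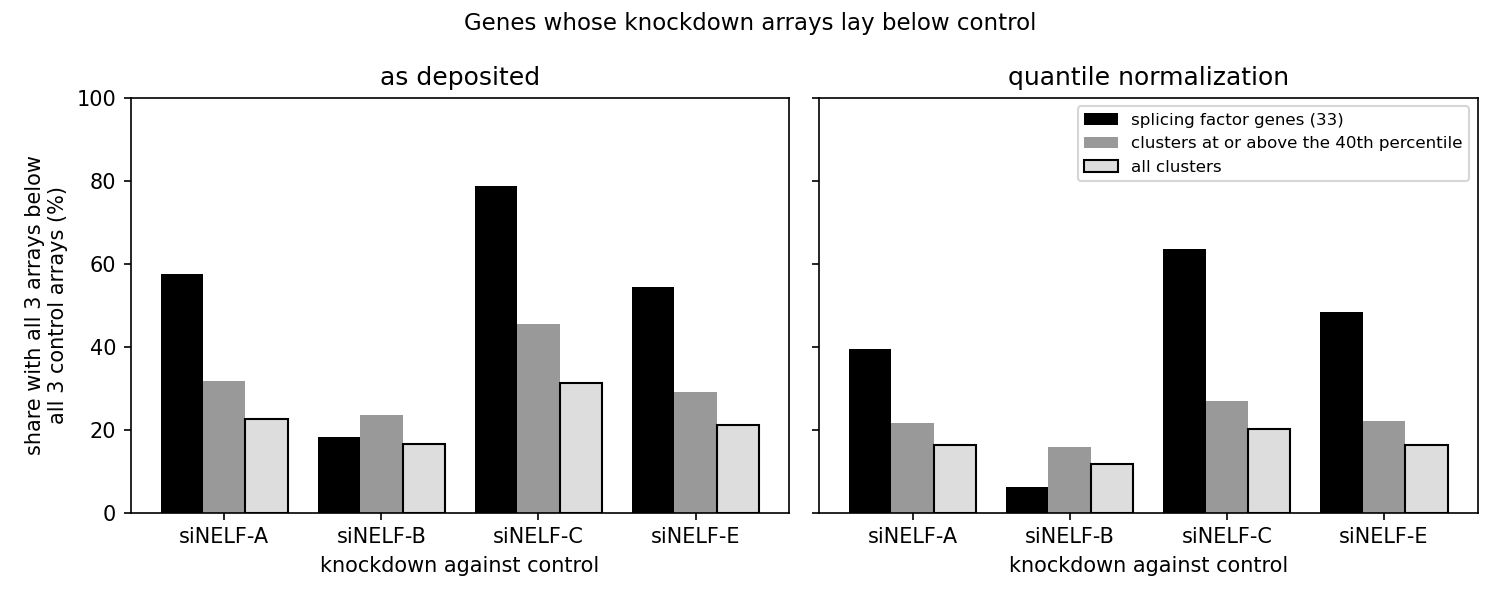
Share (%) of the 33 members with a cluster, of clusters at or above the 40th percentile of level and of all clusters whose 3 knockdown arrays lay below all 3 control arrays, as deposited (left) and after quantile normalization (right). The members' bar is the tallest in siNELF-A, -C and -E cells in both panels and is below the brighter clusters in siNELF-B cells.

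Single arrays of a group differed in the members' median. The median of the 40 members, as a difference from the control mean, was -0.25, -0.31 and -0.38 on siNELF-A replicates 1 to 3, -0.50, 0.07 and -1.22 on siNELF-B, -0.50, -0.69 and -0.54 on siNELF-C and -0.45, -0.43 and -0.26 on siNELF-E, against -0.10, -0.01 and 0.10 on the control arrays. Of the siNELF-B arrays, replicate 2 lay within the control range and replicate 3 was the lowest of the 15. The median of the brighter clusters went with it: -0.37, 0.00 and -0.80 on siNELF-B replicates 1 to 3, where the interquartile range was 3.57, 4.02 and 3.12. Taking each array's interquartile range as a covariate, the member medians were -0.06, 0.08, -0.14 and -0.23 in siNELF-A, -B, -C and -E cells, so that the direction in siNELF-B cells turned. The part of array spread in the members' changes was not tested further.

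**Figure D4:**
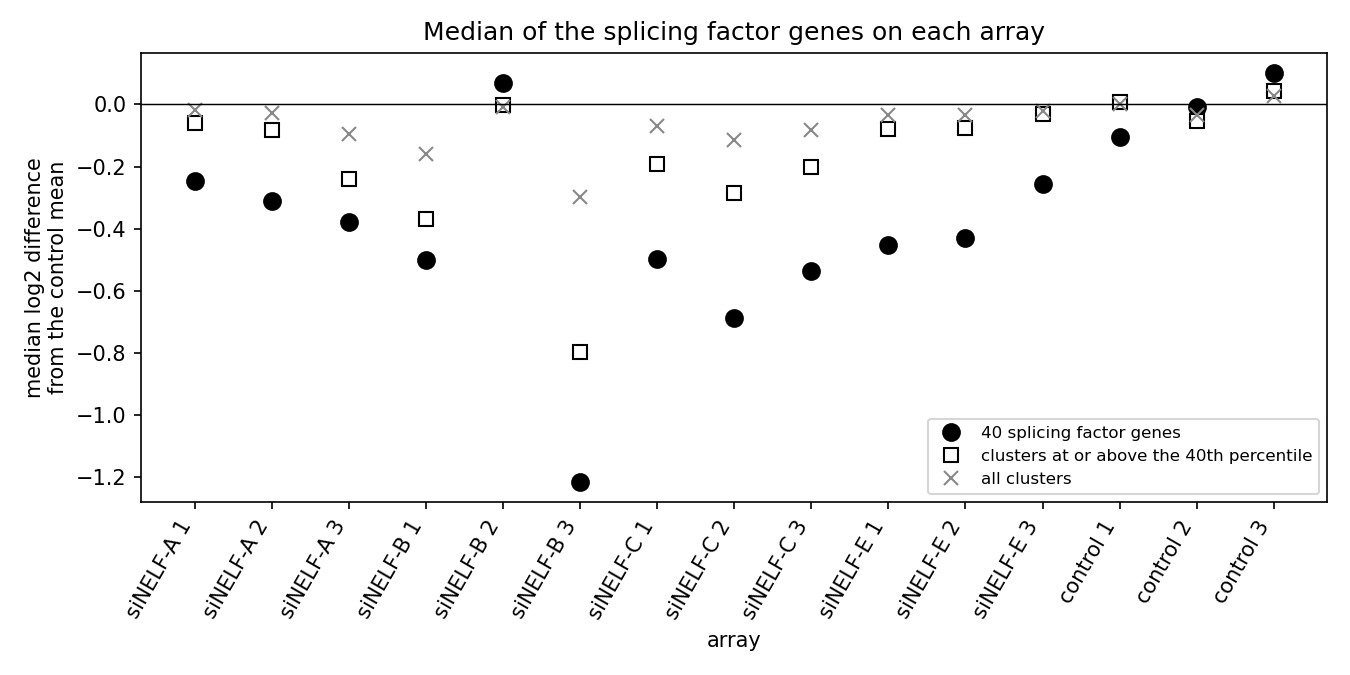
Median log2 difference from the control mean on each array, for the 40 members (filled circles), the clusters at or above the 40th percentile of level (open squares) and all clusters (crosses). On siNELF-A, -C and -E arrays the members lie at -0.69 to -0.25, below both other medians, and the 3 siNELF-B arrays run from 0.07 to -1.22.

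The wide siNELF-B spread entered every test, since all groups shared an estimate of it. Without siNELF-B replicates 2 and 3, which leaves siNELF-B with a lone array assumed to vary like the others, 13 members were called lower in the mean of the 4 knockdowns (background 9.69% of clusters) and none higher. In siNELF-A cells 6 were called (8.97%), with siNELF-B 14 (17.8%), with siNELF-C 19 (14.8%) and with siNELF-E 10 (7.81%). The 13 were 5 of 11 SR proteins, 3 of 10 SR-related genes and 5 of 19 hnRNPs. SRSF3, SRSF4, SREK1, TRA2B, HNRNPH1, HNRNPH3 and HNRNPUL1 were then called in 3 knockdowns each, and no member in all 4. SRSF3 changed by -0.92 (adjusted p = 0.00169) and HNRNPUL1 by -0.78 (adjusted p = 9.77e-05) in the mean of the 4 knockdowns in that fit. These arrays were set aside after their values were known. How many of all clusters were called in 3 knockdowns of that fit was not counted, so that number is not read as a result about the family.

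The exon-level table bears on whether whole transcripts or single exons moved. After filters on low probe sets and genes, 662 probe sets of 39 members were tested, SRSF12 falling out for its low signal, among 153781 probe sets of 9838 genes. Of the members' probe sets 577, or 87.2%, had a mean change below zero, with a median of -0.50, against 71.9% and -0.30 over all probe sets tested. All probe sets lay below zero in 12 of 39 members, against 1664 of all 9838 genes: SRSF3, SRSF5, SRSF6, SRSF7, SRSF10, SREK1IP1, HNRNPA0, HNRNPA2B1, HNRNPC, HNRNPH1, HNRNPK and HNRNPR. SRSF10 had 34 probe sets from -1.79 to -0.43 and HNRNPH1 had 17 from -1.70 to -0.32. For the 33 members with a cluster, the gene-level and exon-level changes had the same sign in 32, all but HNRNPL (-0.16 at exon level, 0.11 at gene level), and the largest gap, 0.45, was that of SCAF11.

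**Figure D5:**
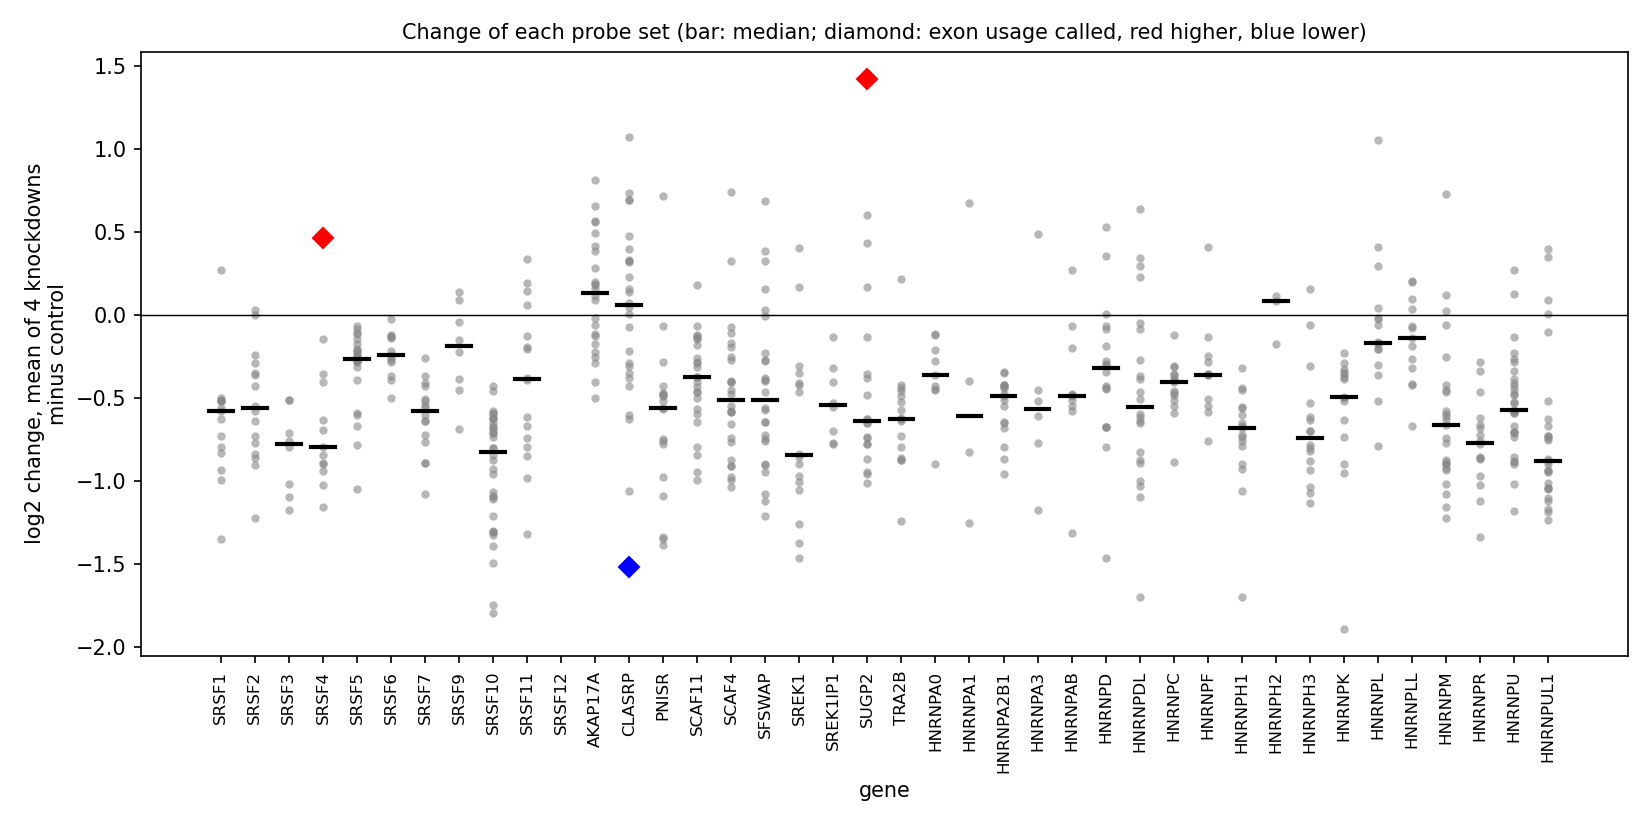
Log2 change (mean of the 4 knockdowns minus control) of each probe set tested in 39 members, with the gene's median as a bar and diamonds for probe sets whose exon usage limma's diffSplice called higher (red) or lower (blue). Most points lie below zero, SRSF12 has none, and the 3 diamonds are SUGP2 and SRSF4 above and CLASRP below their genes.

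Exon usage, which sets the change of 1 probe set against that of the rest of its gene, was called by limma's diffSplice for 3 of the 662 probe sets in the mean of the 4 knockdowns, 2 higher (background 0.222% of probe sets) and 1 lower (0.131%). Probe set 3855436 of SUGP2 lay at 6.23, 6.04 and 6.55 on siNELF-A, 7.27, 6.34 and 8.50 on siNELF-B, 8.21, 7.34 and 7.21 on siNELF-C and 6.98, 6.51 and 5.57 on siNELF-E arrays, against 5.44, 5.89 and 5.09 on control arrays. It was higher on 11 of 12 knockdown arrays than on every control array while the gene as a whole lay lower, a usage difference of 1.92 (adjusted p = 0.00132). Probe set 2403782 of SRSF4 lay at 7.80, 7.70 and 8.22 on siNELF-A, 7.70, 7.13 and 8.19 on siNELF-B, 7.64, 7.82 and 7.77 on siNELF-C and 7.38, 7.60 and 7.92 on siNELF-E arrays, against 7.46, 7.09 and 7.26 on control arrays. It did not share the fall of its gene, a usage difference of 1.20 (adjusted p = 0.0147). Probe set 3835989 of CLASRP had a usage difference of -1.57 (adjusted p = 0.0213) and values from 1.86 to 4.40 over the knockdown arrays, against 3.92 to 5.26 over the control arrays. The CLASRP ranges overlap, and its siNELF-A, -B and -E arrays were widely spread.

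In single knockdowns the same test called 1 probe set higher and 0 lower in siNELF-A cells (background 0.091% and 0.119%), where 36 had an unadjusted p under 0.05. It called 2 lower and 3 higher in siNELF-B cells (0.455% and 0.397%) and likewise 2 lower and 3 higher in siNELF-C cells (0.269% and 0.284%). In siNELF-E cells it called 0 of 662 (background 0.0579% lower and 0.0748% higher), with 14 at an unadjusted p under 0.05. The share of all probe sets at an unadjusted p under 0.05 was not counted. Besides the SUGP2, SRSF4 and CLASRP probe sets these were 2890154 of HNRNPH1, lower in siNELF-B and siNELF-C cells (-1.90 and -1.76), 3438473 of SFSWAP, higher in siNELF-C (1.82), and 3861655 of HNRNPL, 3764140 of SRSF1 (both higher) and 3771802 of SRSF2 (lower) in siNELF-B cells. The test pools the spread of all probe sets of a gene, which can favour calls for probe sets noisier than the rest, and in simulated data it called probe sets of unchanged genes more often than a test with each probe set's own spread did. With each probe set's own spread, chosen as an alternative after seeing the data, limma called 0 of 662 in every comparison, with 60 at an unadjusted p under 0.05 in the mean of the 4 knockdowns and adjusted p = 0.284, 0.259 and 0.423 for the SUGP2, SRSF4 and CLASRP probe sets. No usage call thus held under both ways of taking the spread. Which exons the probe sets lie in was not analysed here.

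Other parts of the splicing machinery also lay mostly below control in the mean of the 4 knockdowns, with 17 of 18, 32 of 35 and 43 of 48 measured genes below zero in the 3 lists that follow. Over all clusters, 12922 of 22011 lay below zero and 982 (4.46%) were called lower, and among clusters at or above the 40th percentile of level 9461 of 13207 lay below zero. Of 18 measured SR protein kinases and partners 1 fell, SRPK1, the kinase that sends SR proteins to the nucleus (change -0.93, adjusted p = 0.0411), with a list median of -0.36, and NXF1, the mRNA export receptor that SR proteins recruit, was at -0.33 (adjusted p = 0.41). Of 35 other splicing regulators 4 fell, among them QKI, which binds introns near exons (-0.93, adjusted p = 0.0249), and ELAVL1, which binds AU-rich RNA (-0.75, adjusted p = 0.014), with a median of -0.39 and PCBP2 at -0.20 (adjusted p = 0.402). Of 48 core spliceosome genes 1 fell, SNRPA1 of the U2 particle (-0.87, adjusted p = 0.0254), with a median of -0.33 and SNRPC of the U1 particle at -0.26 (adjusted p = 0.279). No gene of the 3 lists was called higher in the mean of the 4 knockdowns. In siNELF-C cells 1 of the 35 other splicing regulators was, with 0.922% of all clusters called higher there. The median over the 40 members in that mean was -0.46, below each list's median, and no test of that difference was run. The order differed between knockdowns. In siNELF-B cells the list medians (-0.686, -0.575 and -0.577) all lay below that of the members (-0.532). In siNELF-A cells the other splicing regulators (-0.41) lay below the members (-0.303). In siNELF-C and siNELF-E cells the members (-0.569 and -0.389) lay below each list.

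Because NELF acts at promoters, the sequences around the start sites of the 4 members called in the mean of the knockdowns or in 2 knockdowns are shown. Each window runs from 250 bases before to 50 after the annotated start (RefSeq, GRCh38.p14), on the gene's strand, in lower case, with capitals where a searched motif occurs. Where a gene has several windows, the window with the most marked bases is shown.
SRSF4, chr1:29181851-29182150, minus strand: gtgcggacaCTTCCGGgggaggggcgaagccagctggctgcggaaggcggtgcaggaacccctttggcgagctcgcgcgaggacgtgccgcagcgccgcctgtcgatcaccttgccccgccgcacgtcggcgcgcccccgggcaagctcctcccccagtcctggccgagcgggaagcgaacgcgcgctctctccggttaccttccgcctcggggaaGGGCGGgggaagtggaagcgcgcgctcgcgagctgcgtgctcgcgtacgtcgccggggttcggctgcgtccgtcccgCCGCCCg
SRSF10, chr1:23980278-23980577, minus strand: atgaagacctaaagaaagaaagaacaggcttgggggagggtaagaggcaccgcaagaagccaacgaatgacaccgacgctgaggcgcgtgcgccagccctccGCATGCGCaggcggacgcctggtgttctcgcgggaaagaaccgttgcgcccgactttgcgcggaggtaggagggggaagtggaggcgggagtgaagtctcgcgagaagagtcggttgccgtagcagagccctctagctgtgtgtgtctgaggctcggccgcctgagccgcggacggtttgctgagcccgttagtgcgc
HNRNPH1, chr5:179623622-179623921, minus strand: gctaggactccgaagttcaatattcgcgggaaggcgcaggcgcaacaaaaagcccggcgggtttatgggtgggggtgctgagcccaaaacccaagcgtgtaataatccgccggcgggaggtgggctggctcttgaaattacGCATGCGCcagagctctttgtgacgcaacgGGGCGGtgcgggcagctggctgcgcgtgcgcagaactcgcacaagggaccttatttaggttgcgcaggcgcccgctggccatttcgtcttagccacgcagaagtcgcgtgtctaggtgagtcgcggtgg
HNRNPUL1, chr19:41264122-41264421, plus strand: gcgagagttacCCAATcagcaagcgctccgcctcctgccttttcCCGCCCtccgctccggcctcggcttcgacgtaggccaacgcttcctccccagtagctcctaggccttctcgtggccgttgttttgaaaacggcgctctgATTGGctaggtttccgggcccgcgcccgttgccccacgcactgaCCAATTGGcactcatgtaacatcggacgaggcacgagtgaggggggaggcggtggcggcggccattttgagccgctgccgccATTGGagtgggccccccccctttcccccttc

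The letters searched, on both strands, were TATAAA (the TATA box), CCAAT (the CCAAT box), GGGCGG (the GC box), CCGGAAG (an ETS motif), CACGTG (the E box) and GCGCATGC (the core of the NRF1 motif). SRSF4 holds GGGCGG on both strands and CCGGAAG, on the other strand, near its upstream end, HNRNPH1 holds GGGCGG and GCGCATGC, SRSF10 holds GCGCATGC alone, and HNRNPUL1 holds CCAAT on both strands, where a pair of matches overlaps, and GGGCGG. RefSeq windows were matched for 36 members (52 windows, 11 genes with several), and not for SCAF4, CLASRP, HNRNPA1 and SRSF2. GGGCGG occurred in 59.6% of the members' windows, against 45.0% of all 35116 windows, CCGGAAG in 23.1% against 10.3%, and CACGTG in 21.2% against 7.3%. CCAAT occurred in 38.5% against 34.6%, TATAAA in 13.5% against 11.5% and GCGCATGC in 5.8% against 3.1%. The members' windows were also richer in G and C, with a median of 65.5% against 58.7%, and some windows of the same gene overlap. These shares describe letters and were not tested.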

How the data were processed

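RNA from T47D cells, depleted of ribosomal RNA from 1 ug of input, was hybridised to Affymetrix human exon arrays. Per the labels, the deposited log2 values are RMA values that the authors made in ArrayAssist from core exons, at gene level (22011 clusters) and exon level (287329 probe sets), on genome build hg18; the software version and settings are not given in the sources used here. RMA shrinks differences of dim probes and equalises arrays, and the arrays' interquartile ranges still differed, which can move all changes of bright genes together. The number of arrays limits the precision.

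Platform annotation gave 1 symbol for 14432 clusters, several for 2408 and none listed for 5171, and 22 were renamed to current symbols; of the probe sets 261273 had 1 symbol, 9155 several and 16901 none listed. Where a member had no cluster of its own, the median of its probe sets was used. All 15 arrays entered a limma fit (version 3.58.1, R 4.3.3) with the 5 groups, and p-values were adjusted over all clusters or all 16909 exon medians. Exon usage was tested with diffSplice on probe sets above the 25th percentile of genes above the 40th with at least 3 probe sets. Scripts were tested on simulated data. The members, the gene lists and the tests were chosen with earlier results of these data known. Array values are given for the 8 members with the smallest adjusted p in the mean of the knockdowns, the 3 smallest per knockdown among those called, members called in at least 2 pairs, and the SR protein and hnRNP with the highest and the lowest level; the other members, SRSF7 among them, were given values to cover the families, after these were seen. Of each gene list, the text names up to 2 called genes with the smallest adjusted p and the gene of highest level that was not called.

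Alternatives were other normalizations, a filter on dim clusters, array weights, a covariate for array spread, leaving out arrays, and a replicate block. Deviations of arrays with the same replicate number correlated at -0.30 to 0.20 (median -0.01, 3 of 30 pairs over 0.1). Those of arrays with different numbers correlated at -0.25 to 0.31 (median 0.01, 9 of 60 pairs over 0.1), so that no pairing by number was seen. Promoter windows come from RefSeq (GRCh38.p14), and no array coordinates were used.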

Additional observations from a re-analysis of the deposited data

Results flagged for a closer look

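Values below differ between knockdowns. HNRNPF was higher by 0.61 and HNRNPH1 was at -0.91 in siNELF-E relative to siNELF-A cells, both past the limma test of the difference (adjusted p = 0.0459 and 0.0321). SRSF10 was at -1.06 in siNELF-C and -0.97 in siNELF-E relative to siNELF-B cells (adjusted p = 0.0431 and 0.0335). All 4 calls were lost with exon medians and without some single arrays, among them any 1 siNELF-A array for HNRNPF and HNRNPH1, any 1 siNELF-C array for SRSF10 in siNELF-C and any 1 siNELF-E array for SRSF10 in siNELF-E cells (adjusted p 0.0675 to 0.179).

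For SCAF11 and SRSF5 the arrays of different knockdowns lay on opposite sides of control, but the difference did not pass the test. SCAF11 lay at 6.84, 6.89 and 6.77 on siNELF-E arrays, 6.24, 6.13 and 6.12 on siNELF-A arrays and 6.15, 5.83 and 6.25 on siNELF-C arrays, against 6.44, 6.28 and 6.59 on control arrays. The siNELF-E values exceeded those of siNELF-A cells by 0.67 (adjusted p = 0.439) and those of siNELF-C cells by 0.76 (adjusted p = 0.288). SRSF5 lay at 9.003, 9.13 and 9.06 on siNELF-E arrays, 8.79, 8.76 and 7.98 on siNELF-B arrays and 8.53, 8.18 and 8.54 on siNELF-C arrays, against 8.96, 8.83 and 8.80 on control arrays. The siNELF-E values exceeded those of siNELF-B cells by 0.56 (adjusted p = 0.119) and those of siNELF-C cells by 0.65 (adjusted p = 0.108).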

How the results depend on the processing

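The counts of called members depended on the scaling, on siNELF-B and on single control arrays (the array weights fit stopped before converging). With the interquartile range as a covariate, 24 of 40 members lay below zero in the mean of the knockdowns and 14 of 40 in siNELF-B cells. In the mean of the 4 knockdowns (3 called as deposited, with 4.46% of clusters lower), quantile normalization and 75th percentile centring gave 0 each (2.94% and 2.69%). Leaving out low clusters gave 5 (7.71% of the clusters kept) and array weights 13 (9.69%). The interquartile range as a covariate gave 1 (SRSF10, with 2.26% of clusters lower) and exon medians for every gene 1 (3.91% of exon medians). The member called with exon medians was none of the 3 called as deposited. Counts without siNELF-B replicates 2 and 3 together stand beside their shares above. In siNELF-A cells (3, with 2.83% of clusters lower) the counts were 4 with array weights (8.25%) and 0 with exon medians (2.05% of exon medians). In siNELF-B cells (0, with 4.19% of clusters lower) they were 3 without low clusters (14.1%), 14 without siNELF-B replicates 2 and 3 (17.8%) and 15 with array weights (23.5%). In siNELF-C cells (5, with 5.3% of clusters lower) they were 18 with array weights (14.4%) and 1 with exon medians (4.34% of exon medians), a member not among the 5. There 75th percentile centring called 3 lower (3.9%) and 1 higher (792 of 22011 clusters). In siNELF-E cells (2, with 4.04% of clusters lower) the counts were 4 under quantile normalization (4.34%), 4 under 75th percentile centring (4.57%) and 11 with array weights (8.34%). The covariate gave 7, of which 6 were lower (6.06%) and 1 higher (837 of 22011 clusters), and exon medians gave 1 (3.32% of exon medians). Between pairs of knockdowns (3) they were 10, 10, 17, 10 and 1 in the same order, and the share of clusters called in any pair was not counted. Exon usage calls (3) were 8 under quantile normalization, where the share of all probe sets was not counted. With each probe set's own spread they were 0 (0.0104% of all probe sets called).

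Leaving out each array in turn gave 0 to 15 members in the mean of the knockdowns, 0 to 4 in siNELF-A cells, 0 to 29 with siNELF-B, 0 to 19 with siNELF-C and 1 to 10 with siNELF-E, 0 to 18 between pairs and 0 to 27 usage calls. The 29 came without siNELF-B replicate 2, where 30.3% of clusters were called lower in siNELF-B cells. The 4, 19 and 10 in siNELF-A, -C and -E cells came without siNELF-B replicate 3, where 7.71%, 13.4% and 7.01% of clusters were called lower. The mean of the knockdowns gave 0 without control replicate 2 or 3 (2.17% and 1.21% of clusters lower) and 1 without control replicate 1 (1.66%). It gave 15 without siNELF-B replicate 2 (12.3%) and 7 without siNELF-B replicate 3 (6.24%). Although no pairing by replicate number was seen, a replicate block gave 3 members in the mean of the knockdowns (3.52% of clusters lower). It gave 2 in siNELF-A cells (2.19%), 0 with siNELF-B (1.84%), 3 with siNELF-C (3.89%) and 2 with siNELF-E (3.5%), 1 between pairs and 3 usage calls.

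Of 337 refits of the 13 named members' mean change, 295 kept direction and side of the threshold, 20 lost a call, 20 gained it and 2 turned: HNRNPC to 0.14 and HNRNPLL to 0.37 with the interquartile range as a covariate. The median of all clusters in the mean of the knockdowns moved to 0.21 under 75th percentile centring, where the members' median was -0.17. The 75th percentile centring was an alternative chosen after seeing the data. With it, the members with all 3 arrays below control were 27.3%, 3%, 51.5% and 45.5% of the 33 in siNELF-A, -B, -C and -E cells. The shares of all clusters were 12.8%, 8.72%, 14.9% and 14.8%, and those of the brighter clusters 18.8%, 13.6%, 22.3% and 21.3%. In siNELF-B cells the members' share lay below both backgrounds. Low signal limits what SRSF12 can show.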
